A study of Mus musculus with 6 samples.

Results

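The 10 genes described here encode NRF2 (*Nfe2l2*), its cytoplasmic inhibitor KEAP1 (*Keap1*), and 8 antioxidant and glutathione enzymes that NRF2 is known to control. The enzymes are *Nqo1*, *Hmox1*, *Gclc*, *Gclm*, *Gsr*, *Txnrd1*, *Srxn1* and *Gsta4*. They were selected by gene symbol, and all 10 were present among the 17784 genes listed. RNA-seq compared corneal epithelial cells of 3 *Prrx1-CreERT;Ptch1* f/f samples, called *Ptch1*-ablated, with those of 3 *Ptch1* f/f control samples. Both groups received 3 doses of tamoxifen, and the labels give an interval of 2 months and an age of 10 weeks, whereas the study describes induction at 2 months of age. *Prrx1-CreERT* is a tamoxifen-inducible recombinase active in keratocytes and other ocular mesenchyme, including the corneal endothelium, so the deletion was aimed at cells beneath the epithelium that was sequenced. Per the labels the epithelium was separated with EDTA, and neither the labels nor the methods say whether a sample came from 1 mouse or from pooled mice, so the p-values measure the spread between these samples.

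NRF2 is a transcription factor that KEAP1 holds in the cytoplasm and directs to degradation. Oxidants and electrophiles modify KEAP1, NRF2 then accumulates in the nucleus, pairs with small MAF proteins and binds antioxidant response elements in its target genes. Their products make glutathione, keep glutathione and thioredoxin reduced, and detoxify quinones, heme and lipid aldehydes. The corneal epithelium meets light and oxygen directly and is known for its high content of such enzymes.

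Promoter sequences, from 250 bases before to 50 bases after an annotated start site, were taken from RefSeq (build GRCm38.p6) and matched 6 of the 10 genes with 8 promoters. *Hmox1*, *Gclc*, *Gsr* and *Gsta4* had no entry. The core of the antioxidant response element, TGACNNNGC on either strand, occurred in the promoters of *Nfe2l2*, *Gclm*, *Txnrd1* and *Srxn1*, and in 12.4% of all 32851 promoters. The related AP-1 site TGANTCA, searched separately, occurred in *Srxn1* and in 7.81% of all promoters. The stretches around the matches upstream of the start site are shown to set the sequence beside the values below, where *Txnrd1* passed the test and the other 3 genes did not, with capitals marking the match to TGACNNNGC in *Nfe2l2*, *Gclm* and *Txnrd1* and to TGANTCA in *Srxn1*.
Nfe2l2, chr2:75704875-75704913, minus strand: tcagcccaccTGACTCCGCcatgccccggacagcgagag
Gclm, chr3:122245403-122245451, plus strand: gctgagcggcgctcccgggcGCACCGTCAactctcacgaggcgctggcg
Txnrd1, chr10:82859094-82859142, plus strand: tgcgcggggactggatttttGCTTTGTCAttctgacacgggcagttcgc
Srxn1, chr2:152105407-152105500, plus strand: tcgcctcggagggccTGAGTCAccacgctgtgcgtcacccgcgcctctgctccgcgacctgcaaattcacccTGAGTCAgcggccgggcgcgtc

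The *Txnrd1* match lay 92 to 84 bases before the second of its 3 start sites, and the windows of the other start sites held no match. The gene-level values do not separate these start sites. In *Srxn1* the AP-1 matches began 102 and 45 bases before the start site, and its match to the response element core lay 29 to 37 bases after it and is not shown. No match was found in the windows of *Keap1* and *Nqo1*. A match is a description of the letters and was not tested as a binding site.

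Depth was close to equal, from 20296681 to 20625792 counts per sample, so 3 counts corresponded to 0.145 to 0.148 CPM (counts scaled to library size), a floor that covers counting error only. *Ptch1*, the deleted Hedgehog receptor, had 517, 659 and 682 normalized counts in control replicates 1 to 3 and 390, 445 and 471 in *Ptch1*-ablated replicates 1 to 3 (log2 fold change -0.51, standard error 0.13, adjusted p = 0.0357). This adjusted p was above the threshold in 7 of 17 other settings, at up to 0.133. The corneal epithelial keratin *Krt12* lay between 37107 and 49487 TPM (RSEM's level scaled for transcript length and depth) in every sample, and the keratocyte gene *Kera* reached at most 0.07 TPM. The 6 corneal epithelial markers summed to 98432 to 106362 TPM in controls and 83629 to 106299 TPM in ablated samples, lowest in replicate 1. Of these, *Pax6* was lower in all ablated samples (302 to 386 against 409 to 433 TPM) and did not pass in edgeR (adjusted p = 0.113). On the first principal component (58.1% of variance) the controls lay from -33.7 to -26.5, *Ptch1*-ablated replicates 2 and 3 at 18.3 and 19.1, and replicate 1 apart at 51.7. Replicate 1 also had the highest summed TPM of 5 conjunctival markers, 4677, against 2180 to 2899 in the other ablated samples and 1391 to 2324 in controls. Its sum came almost all from the keratins *Krt13* (3182 TPM), *Krt4* (898 TPM) and *Krt19* (587 TPM). On the same list *Agr2* had 9.72 TPM in replicate 1, inside the control range of 7.31 to 14.4 TPM. *Spdef* had 0.07 TPM there, against 0.20 to 0.22 TPM in controls, at very low counts. The 4 limbal markers summed to 1028 to 2110 TPM in controls and 1629 to 3675 TPM in ablated samples, again highest in replicate 1. *Krt15* supplied most of the sum in ablated replicate 1, at 3296 TPM. *Gpha2* had 86.7 TPM in that sample, above its control range of 51.1 to 78.9 TPM. *Ifitm3* (282.5 TPM) and *Cd63* (10.2 TPM) lay inside their control ranges of 119 to 489 and 2.46 to 13.6 TPM. The 5 stromal markers summed to 2.73 to 47.8 TPM in controls, highest in replicate 3, and to 2.44 to 5.89 TPM in ablated samples. The 7 immune markers summed to 125 to 166 TPM in controls and 153 to 206 TPM in ablated samples, with the pan-leukocyte gene *Ptprc* at no more than 0.20 TPM. Most of this sum came from *Itgam* (67.0 to 101 TPM in controls, 99.5 to 129 in ablated samples) and *Cd68* (45.3 to 50.1 against 48.8 to 65.5 TPM). *Cd74* had a lower mean in ablated samples, 7.84 against 11.3 TPM, with overlap. *Adgre1*, *Lyz2* and *Csf1r* reached at most 0.32 TPM. Of 35 listed markers of other cell types 18 were high enough to be tested and 0 passed in edgeR. An unadjusted p under 0.05 was found for 3, beside 4311 of all 12999 tested genes. Among these 3 markers *Krt13* and *Itgam* were higher in all ablated samples in normalized counts.

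The 10 genes spanned more than 3 orders of magnitude in control epithelium on the TPM scale, which corrects for transcript length. *Gsta4*, a glutathione transferase that conjugates the lipid peroxidation product 4-hydroxynonenal, stood far above the rest at 11039 ± 749 TPM (SD, n = 3). *Nfe2l2* followed at 97.4 ± 6.86 TPM and *Nqo1* at 91.1 ± 6.27 TPM, and their ranges over the control samples overlapped. *Keap1* at 57.7 ± 5.96 TPM and *Gclc* at 50.6 ± 5.84 TPM formed the next overlapping pair. *Gsr* (29.8 ± 1.37 TPM), *Gclm* (25.6 ± 2.97 TPM), *Txnrd1* (22.1 ± 3.06 TPM) and *Srxn1* (18.7 ± 3.16 TPM) each overlapped with the next in order. *Hmox1* was lowest at 4.01 ± 1.13 TPM, below every other member in every control sample.

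In *Ptch1*-ablated epithelium *Txnrd1* moved from rank 8 to rank 6 in the order of levels, past *Gsr* and *Gclm*, at 41.1 ± 7.99 TPM, and its range overlapped with those of *Gclc* (42.7 ± 4.38 TPM) and *Gsr* (33.9 ± 1.28 TPM). *Gclm* and *Srxn1* both lay at 24.9 TPM, and the other members kept their ranks. *Hmox1* remained lowest at 8.85 ± 3.02 TPM.

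**Figure D1:**
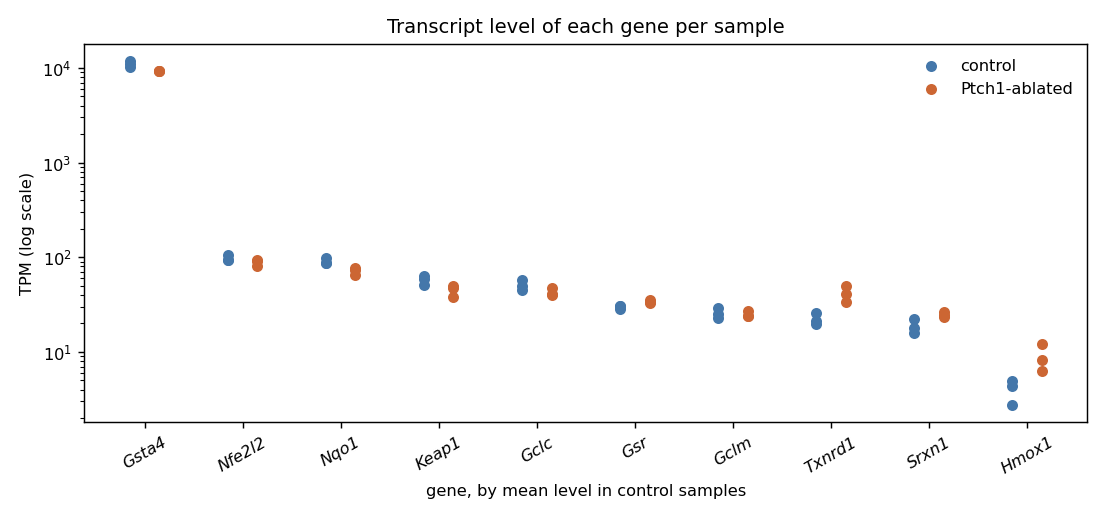
Transcript level in TPM on a log axis for each of the 10 genes, ordered by mean control level, with 1 point per sample and 3 samples per group. *Gsta4* lies at 9191 to 11770 TPM, 8 genes lie between about 16 and 105 TPM, and *Hmox1* lies lowest at 2.75 to 12.2 TPM.

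Samples were compared with edgeR's quasi-likelihood test over 12999 genes, with Benjamini-Hochberg adjusted p-values. A gene was said to pass at an adjusted p of at most 0.05, and to be called when its fold change was also at least 2, the thresholds of the study's methods. All 10 genes were high enough to be tested. DESeq2 called 1 of them, *Hmox1*, beside 2.91% of the 17743 genes it tested. In edgeR 0 were called, beside 3.01% of all tested genes. An unadjusted p under 0.05 in edgeR was found for 7 of the 10, beside 4311 of all 12999 tested genes. Without the fold threshold 2 of the 10 passed, *Txnrd1* upward and *Nqo1* downward, where 7.52% of all tested genes passed upward and 6.51% downward. The groups did not overlap for 4 members that were higher in ablated samples and 3 that were lower, and over all tested genes these shares were 19.7% and 20.3%. The median log2 fold change of the 10 genes was -0.05 and that of all tested genes -0.01, with 4 members above 0 and 6 below. Because the tissue was measured in bulk, fewer cells of a type and less RNA per cell cannot be told apart.

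**Figure D2:**
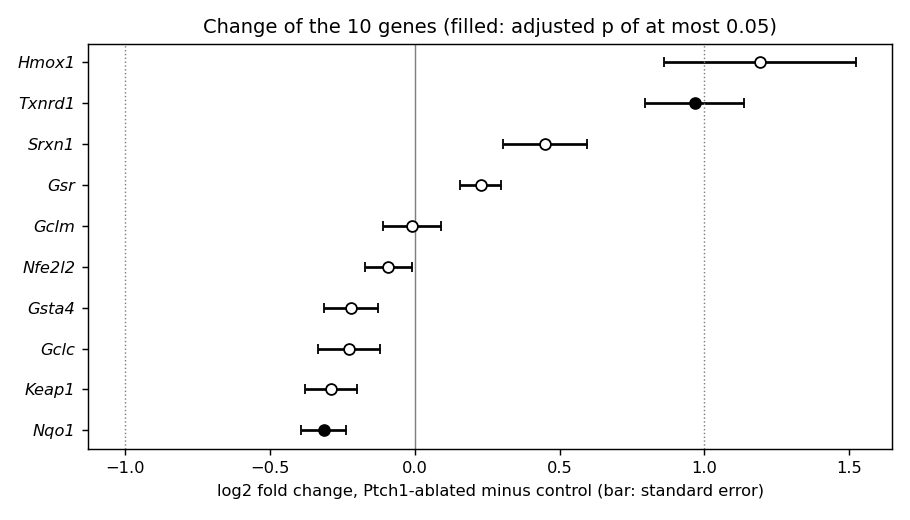
Log2 fold change of the 10 genes, *Ptch1*-ablated minus control, with the standard error of edgeR's fit from 3 samples per group. Filled points mark *Txnrd1* (0.97) and *Nqo1* (-0.31), the genes that passed at an adjusted p of at most 0.05, and dotted lines mark a 2-fold change.

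The regulators came first. *Nfe2l2*, encoding NRF2 itself, had 2209, 2163 and 2375 normalized counts in control replicates 1 to 3 and 2280, 1918 and 2140 in *Ptch1*-ablated replicates 1 to 3. The groups overlapped, with ablated replicate 1 inside the control range. They differed by -0.09 on the log2 scale (standard error 0.08, adjusted p = 0.472).

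*Keap1*, encoding the protein that targets NRF2 for degradation, had 1612, 1781 and 1861 normalized counts in controls and 1281, 1509 and 1510 in ablated samples. Every ablated sample lay below every control sample, and replicate 1 was the lowest. The difference did not pass (log2 fold change -0.29, standard error 0.09, adjusted p = 0.0647). The ratio of *Keap1* to *Nfe2l2* TPM was 0.553, 0.624 and 0.598 in controls and 0.414, 0.579 and 0.530 in ablated samples. These ranges overlapped, since ablated replicate 2 lay above control replicate 1.

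Of the thioredoxin arm, *Txnrd1* had the smallest p of the 10 genes. It encodes the cytosolic selenoenzyme that uses NADPH to keep thioredoxin reduced. *Txnrd1* had 687, 616 and 789 normalized counts in control replicates 1 to 3 and 1710, 1105 and 1272 in *Ptch1*-ablated replicates 1 to 3. The groups were well separated, and ablated replicate 1 was the highest sample. *Txnrd1* rose 1.95-fold (log2 fold change 0.97, standard error 0.17, adjusted p = 0.0169), just short of the fold change needed for a call. Without ablated replicate 1, the sample that stood apart and had the highest conjunctival marker sum, the difference was 0.77 on the log2 scale (standard error 0.11, adjusted p = 0.00542). The part of those markers in the result was not tested. Ablated replicate 3, kept in that fit, also had a marker sum above every control, 2899 against at most 2324 TPM. The adjusted p of *Txnrd1* was above the threshold without control replicate 1 (0.0584) or control replicate 2 (0.0823), at log2 fold changes of 0.95 and 0.88.

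Among the 3 thioredoxin reductase genes, *Txnrd1* made up 49.4%, 44.8% and 53.6% of the summed TPM in controls and 65.7%, 52.8% and 62.0% in ablated samples. Ablated replicate 2 lay just below control replicate 3, so the groups overlapped on this measure.

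*Srxn1* encodes sulfiredoxin, which restores over-oxidized peroxiredoxins. It had 596, 412 and 459 normalized counts in controls and 746, 626 and 632 in ablated samples. All ablated samples were higher, although control replicate 1 came close to the lowest of them. The difference did not pass (log2 fold change 0.45, standard error 0.14, adjusted p = 0.0720), and without control replicate 1 it did (log2 fold change 0.62, adjusted p = 0.0324).

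*Hmox1* encodes heme oxygenase 1, the inducible enzyme that breaks down heme. It had 73.5, 39.3 and 61.2 normalized counts in controls and 189, 120 and 88.6 in ablated samples. All ablated samples were higher, but they differed among themselves by more than the controls did. The 2.28-fold difference was the greatest among the 10 genes and missed the threshold (log2 fold change 1.19, standard error 0.33, adjusted p = 0.0519). The adjusted p was 0.00829 in DESeq2 and 0.0353 in edgeR without ablated replicate 3.

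*Nqo1* encodes a quinone reductase widely used as a readout of NRF2 activity. It had 1284, 1229 and 1363 normalized counts in controls and 984, 1119 and 1017 in ablated samples. Every ablated sample lay below every control sample. *Nqo1* fell by 0.31 on the log2 scale (standard error 0.08, adjusted p = 0.0360), the opposite direction to *Txnrd1* in the same samples. The adjusted p lay between 0.0617 and 0.0996 when control replicate 1, 2 or 3 or ablated replicate 1 or 3 was left out, and at 0.0429 without ablated replicate 2. The ratio of *Txnrd1* to *Nqo1* TPM was 0.242, 0.224 and 0.259 in controls and 0.768, 0.436 and 0.553 in ablated samples. The TPM of each gene already separated the groups, in opposite directions, so this ratio could not overlap and adds no evidence.

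**Figure D3:**
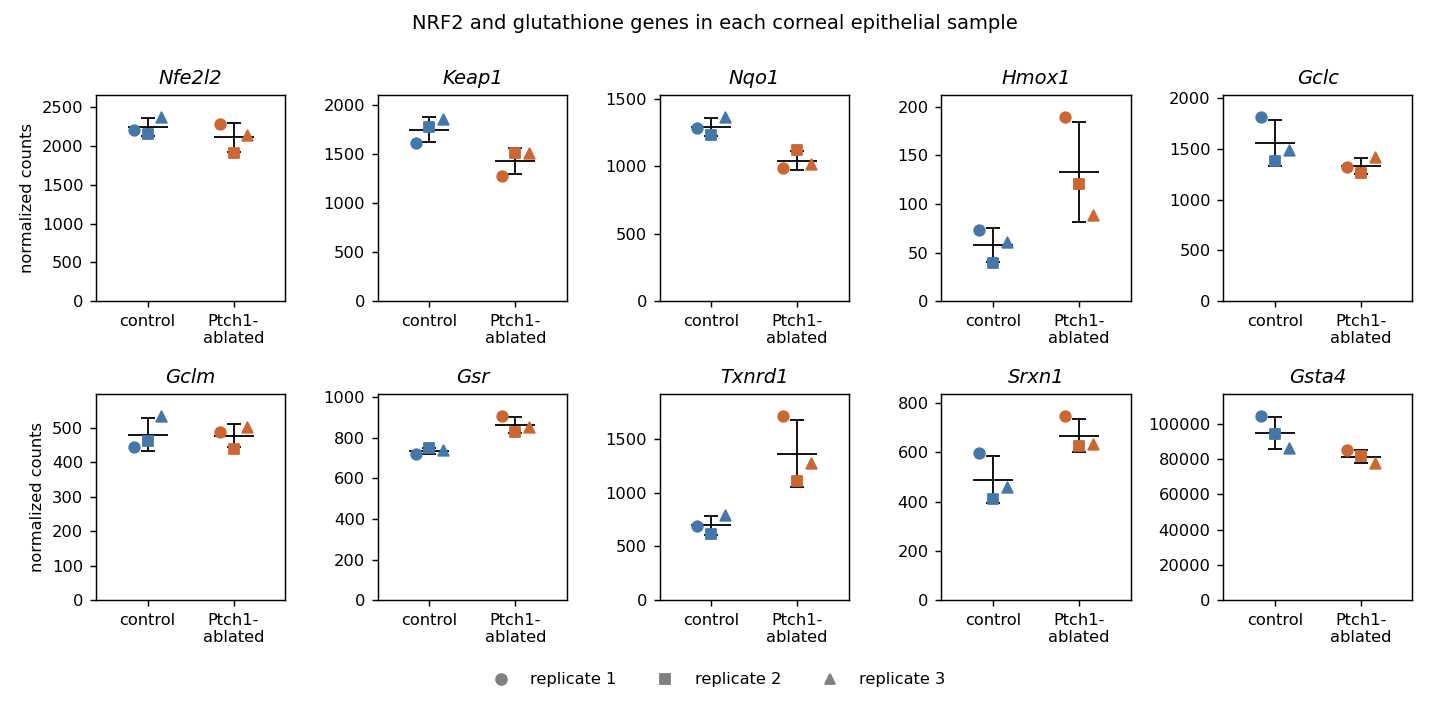
Normalized counts of the 10 genes in each sample on linear axes that start at 0, with replicates as symbols and the mean and SD (n = 3) as black bars. *Txnrd1*, *Hmox1*, *Srxn1* and *Gsr* are higher in all ablated samples, *Keap1*, *Nqo1* and *Gsta4* are lower in all of them, and *Nfe2l2*, *Gclc* and *Gclm* overlap.

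The glutathione genes showed small differences in both directions. *Gclc*, encoding the catalytic subunit of the rate-limiting ligase of glutathione synthesis, had 1811, 1378 and 1486 normalized counts in controls and 1316, 1262 and 1421 in ablated samples. The groups overlapped, and control replicate 1 was the highest sample (log2 fold change -0.23, standard error 0.11, adjusted p = 0.180).

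*Gclm*, encoding the modifier subunit of the same ligase, had 445, 463 and 534 normalized counts in controls and 489, 440 and 504 in ablated samples. The groups lay on top of each other (log2 fold change -0.01, standard error 0.10, adjusted p = 0.961), and the sign turned when control replicate 3 or ablated replicate 2 was left out.

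*Gsr*, encoding the reductase that regenerates glutathione from its disulfide, had 720, 750 and 739 normalized counts in controls and 906, 829 and 854 in ablated samples. The control values were tight and all ablated samples lay above them, but the difference did not pass (log2 fold change 0.23, standard error 0.07, adjusted p = 0.0648).

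*Gsta4* had 104279, 94199 and 86065 normalized counts in controls and 84999, 81853 and 77539 in ablated samples. All ablated samples were lower, with replicate 1 close to control replicate 3 (log2 fold change -0.22, standard error 0.09, adjusted p = 0.146). *Gsta4* supplied 37.7%, 37.2% and 28.1% of the summed TPM of *Gsta4* and the other listed glutathione transferases in controls and 33.2%, 32.4% and 30.6% in ablated samples, with overlap.

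*Ptch1*-ablated replicate 1 lay farthest from the control mean for 6 of the 7 members whose groups did not overlap, and replicate 3 did so for *Gsta4*. Without replicate 1, 1 of the 10 genes passed, *Txnrd1*. The share of all tested genes that passed in that fit is not given, so this count is not read as a result about the 10 genes. The log2 fold changes of the other non-overlapping members then were 0.85 for *Hmox1*, 0.37 for *Srxn1* and 0.20 for *Gsr*. They were -0.21 for *Keap1*, -0.27 for *Nqo1* and -0.25 for *Gsta4*.

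The genes whose log2 CPM followed *Txnrd1* most closely over the 6 samples were *Iars2* (Pearson r = 0.999), *Ptgs1* (0.998), *Ywhah* (0.997), *Serinc2* (0.997) and *Il1f8* (0.997). *Iars2* encodes a mitochondrial isoleucyl-tRNA synthetase and *Ptgs1* the cyclooxygenase COX-1. These values describe 6 samples in 2 groups that share the same contrast and were picked from all tested genes as the highest.

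The wider antioxidant system was read from 123 further genes in 9 groups, of which 120 were listed and 110 were tested. Of these 110, 6 passed upward and 13 downward, where 7.52% and 6.51% of all tested genes did, and 3 were called upward and 1 downward, where 3.01% of all tested genes were called in either direction. An unadjusted p under 0.05 in edgeR was found for 43 of these 110, beside 4311 of all 12999 tested genes. The groups did not overlap for 14 genes higher and 35 lower in ablated samples, beside 19.7% and 20.3% of all tested genes. The median log2 fold change was -0.11, with 41 genes above 0 and 69 below. Among all tested genes 6700 of 12999 lay below 0. The same shares of all tested genes stand beside the counts of each group below. These groups are small and were not tested as sets.

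**Figure D4:**
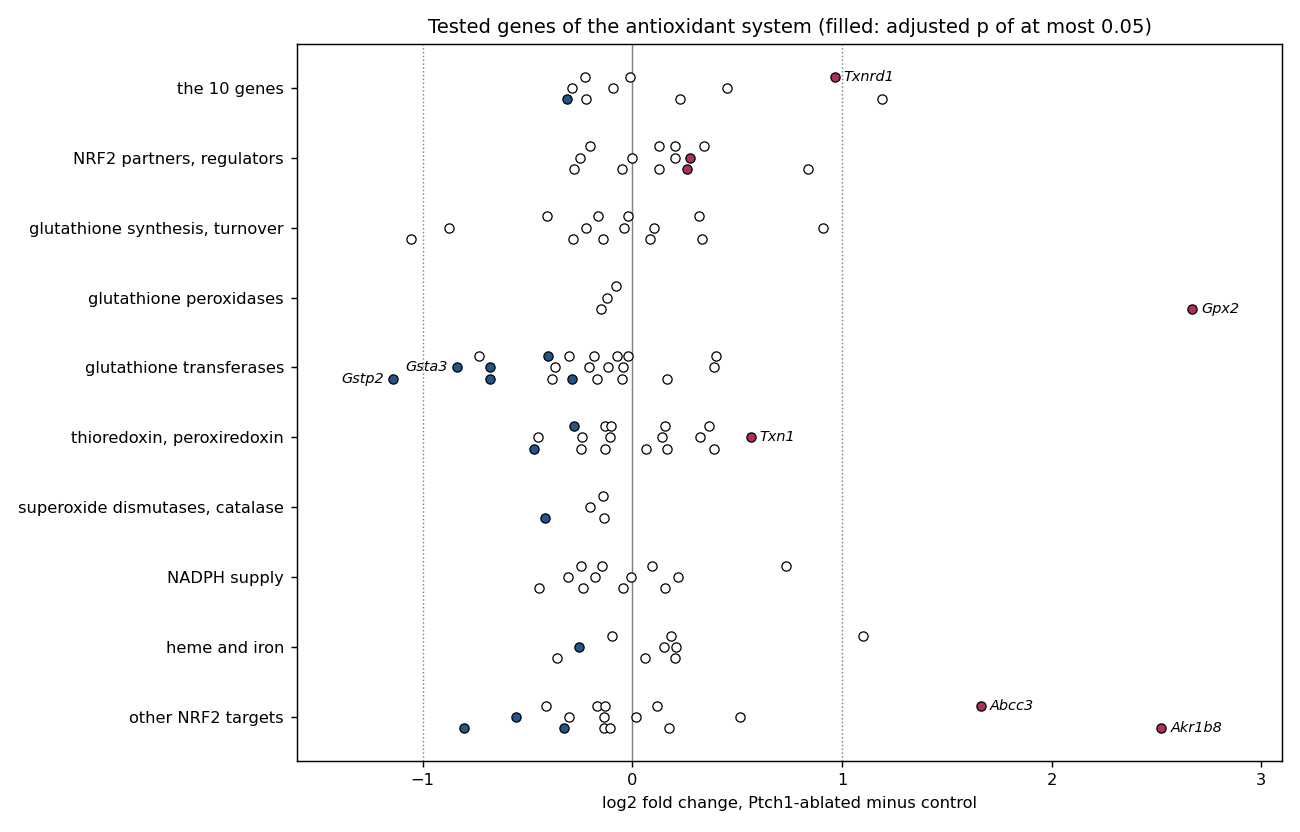
Log2 fold change, *Ptch1*-ablated minus control, of the 10 genes (top row) and of 110 further tested genes in 9 groups, with 1 point per gene, vertical offsets only for legibility and filled points at an adjusted p of at most 0.05. *Gpx2*, *Akr1b8* and *Abcc3* lie beyond 2-fold upward and *Gstp2* beyond 2-fold downward, and all 6 passing glutathione transferases lie below 0.

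Among 13 tested partners and regulators of NRF2, 2 passed upward and 0 downward in edgeR, and 3 above 0 and 2 below had an unadjusted p under 0.05. DESeq2 passed 4 upward, adding *Maff* and *Sqstm1*, and 1 downward, *Nfe2l3*. The genes that passed in edgeR were *Fbxw11* (log2 fold change 0.28, adjusted p = 0.0290), a substrate adaptor of the beta-TrCP ubiquitin ligase, and *Gsk3b* (0.26, adjusted p = 0.0351), a kinase that marks NRF2 for that ligase. Neither passed in limma on log2 TPM (adjusted p = 0.0842 for *Fbxw11* and 0.0786 for *Gsk3b*), and they missed the threshold in 7 and 9 of 17 other settings. The expected counts of *Gsk3b* were not whole in any of the 6 samples. *Sqstm1*, the autophagy adaptor that binds KEAP1, lay at 218, 186 and 192 TPM in controls and 269, 211 and 254 TPM in ablated samples, with overlap (log2 fold change 0.34, adjusted p = 0.0986). The related factor *Nfe2l1* had a log2 fold change of -0.05 (adjusted p = 0.625).

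Of 14 tested genes of glutathione synthesis and turnover 0 passed in edgeR, 4 had an unadjusted p under 0.05, and DESeq2 also passed 0. *Gss*, the second enzyme of synthesis, had a log2 fold change of 0.32 (adjusted p = 0.0954). *Slc3a2*, the heavy chain of the cystine transporter, had one of -0.16 (adjusted p = 0.288).

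Most glutathione transferases lay below 0. Of 21 tested members 18 had a log2 fold change below 0, beside 6700 of all 12999 tested genes. The median was -0.21, and that of all tested genes -0.01. In edgeR 6 passed downward and 0 upward, as in DESeq2, where 6.51% and 7.52% of all tested genes did so in edgeR. An unadjusted p under 0.05 in edgeR was found for 9 below 0 and 1 above, beside 4311 of all 12999 tested genes. *Gsta3* had 223, 254 and 237 TPM in controls and 126, 110 and 153 TPM in ablated samples (log2 fold change -0.84, standard error 0.10, adjusted p = 0.00606). *Gstm1* fell by 0.68 on the log2 scale (adjusted p = 0.0151), and *Gsta2* also fell by 0.68 (adjusted p = 0.0221). *Gstp2* was called, from a mean of 84.8 normalized counts in controls to one of 38.4 in ablated samples, with no overlap (log2 fold change -1.14, standard error 0.19, adjusted p = 0.0127). *Gstp2*, *Gstm1*, *Gsta2* and the passing transferases not named here had expected counts that were not whole in all 6 samples. Those of *Gsta3* were not whole in 3 samples. Reads shared with close relatives were thus split by estimation, and the values of all 6 passing transferases are uncertain to that extent. *Gsto1*, the most abundant transferase, lay between 17182 and 24810 TPM in controls and between 17494 and 19690 TPM in ablated samples, and its log2 fold change of -0.07 (adjusted p = 0.746) became 0.09 without control replicate 3.

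In the thioredoxin, peroxiredoxin and glutaredoxin group 1 of 17 tested genes passed upward and 2 downward, beside 7.52% and 6.51% of all tested genes. *Txn1*, cytosolic thioredoxin and the substrate of TXNRD1, had 569, 528 and 663 TPM in controls and 909, 858 and 754 TPM in ablated samples. The groups did not overlap (log2 fold change 0.57, standard error 0.12, adjusted p = 0.0233). The mitochondrial form *Txn2* fell by 0.28 on the log2 scale (adjusted p = 0.0432), and *Prdx6*, a peroxiredoxin that uses glutathione, fell by 0.47 (adjusted p = 0.0169). *Prdx5* had a log2 fold change of -0.24 (adjusted p = 0.0904).

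Of 4 tested glutathione peroxidases 1 passed. *Gpx2*, the epithelial form, had 0.70, 0.10 and 1.34 TPM in controls and 5.39, 2.18 and 5.91 TPM in ablated samples. It was called (log2 fold change 2.67, standard error 0.66, adjusted p = 0.0384) at a low level throughout, and it missed the threshold when control replicate 1 or 2 or ablated replicate 1 or 3 was left out. *Gpx1* and *Gpx4*, both between 299 and 497 TPM in every sample, had log2 fold changes of -0.12 and -0.15 and did not pass.

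Among superoxide dismutases and catalase 1 of 4 tested genes passed. *Sod1* had 182, 161 and 165 TPM in controls and 120, 120 and 131 TPM in ablated samples (log2 fold change -0.42, standard error 0.09, adjusted p = 0.0213). Of 12 tested genes of NADPH supply 0 passed in edgeR and in DESeq2, and 2 had an unadjusted p under 0.05 in edgeR. The pentose phosphate enzymes *Tkt* (-0.31, adjusted p = 0.159) and *Taldo1* (-0.24, adjusted p = 0.101) were the most abundant of them, and limma on log2 TPM passed *Taldo1* downward.

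Of 9 tested genes of heme and iron handling, the heme-making enzyme *Fech* fell by 0.25 on the log2 scale (adjusted p = 0.0389) and was the 1 gene that passed in edgeR. The transferrin receptor gene *Tfrc*, named after its values were seen, had 437, 422 and 368 normalized counts in controls and 1215, 861 and 552 in ablated samples. All ablated samples were higher, and the 2.14-fold difference missed the threshold in edgeR (log2 fold change 1.10, standard error 0.28, adjusted p = 0.0533). DESeq2 and limma-voom both called *Tfrc* upward, and DESeq2 also passed *Slc48a1*, a heme transporter gene, downward. The ferritin genes *Fth1* and *Ftl1* each had a log2 fold change of 0.21, with overlap (adjusted p = 0.285 and 0.299). Their levels in ablated samples ran from 1632 to 2240 TPM for *Fth1* and from 344 to 441 TPM for *Ftl1*.

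Among 16 further tested NRF2 targets 2 passed upward and 3 downward. *Akr1b8*, an aldo-keto reductase, had 9.30, 10.1 and 13.3 TPM in controls and 87.3, 48.5 and 44.5 TPM in ablated samples. All ablated samples were far above the controls, and the gene was called (log2 fold change 2.52, standard error 0.34, adjusted p = 0.0128), although its counts were partly shared with related genes. The export pump gene *Abcc3* was called at a low level, with 0.46, 0.47 and 0.45 TPM in controls and 1.02, 1.45 and 1.80 TPM in ablated samples (log2 fold change 1.66, standard error 0.25, adjusted p = 0.00943). The epoxide hydrolase *Ephx1* fell by 0.80 on the log2 scale (adjusted p = 0.0213), and the reductase *Ptgr1* fell by 0.55 (adjusted p = 0.0248).

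For the 19 passing genes of this wider set, ablated replicate 1 lay farthest from the control mean in 12, replicate 2 in 3 and replicate 3 in 4. Without replicate 1, 4 of 112 tested genes passed upward and 12 downward. Without control replicate 2, 1 gene of the set passed, *Gsta3*, and without control replicate 1, 7 did. Fewer of all tested genes also passed without control replicate 2, as given below. These counts with a sample left out are therefore not read as a result about the set.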

How the data were processed

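The authors aligned reads with Bowtie2 2.2.5 and quantified genes with RSEM 1.2.12, and the submitters' processing notes name the mouse build mm9. The labels name a TruSeq kit and the study's methods rRNA depletion and DNA nanoball sequencing. The deposited expected counts are RSEM's unscaled estimates per gene, and they were rounded before testing. The TPM values deposited by the authors are RSEM's levels corrected for length and sequencing depth. Deposited FPKM values and the authors' group means and comparison columns were not used, and 0 other sample columns were used.

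Genes kept by filterByExpr (12999 of 17784) were tested in R 4.3.3 with edgeR 4.0.16 (robust quasi-likelihood test, TMM factors 0.960 to 1.03, Benjamini-Hochberg adjustment over all tested genes). Normalized counts are TMM-scaled CPM times the mean scaled library size. All counts of the 10 genes were whole within 0.005. An exact test of 3 samples against 3 cannot go below p = 0.10. Pairs within a group exceeded sampling noise (chi-square per degree of freedom 10.1 to 37.8). The procedure was tested on simulated data. Promoters came from RefSeq tables of another build than the counts, and *Muc5ac*, *Lum* and *Kdr* were not analysed here. Values of 1 marker are not reported here.

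All 10 genes were named whatever their values. From each pathway list the text names the called genes, at most 4 passing genes of smallest p, and at most 2 of highest mean TPM, with *Ptch1* and the 5 genes most like *Txnrd1*. *Tfrc*, *Slc48a1*, *Maff*, *Nfe2l3* and single markers fall outside this rule and were picked once their values had been seen. Members and lists were chosen with earlier results of these data known. Alternatives were DESeq2 1.42.0, limma-voom and limma 3.58.1 on log2 TPM (pseudocount 1 or 0.1), other size factors and filters, a replicate block, and each sample left out. edgeR without robust estimation was added after the data were seen.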

Additional observations from a re-analysis of the deposited data

How the results depend on the processing

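Over 17 alternatives, 150 of 170 values of the 10 genes kept their direction and side of the threshold, 8 lost significance, 10 gained it and 2 changed sign. Of the 10 genes 1 was called with DESeq2, with a filter of at least 10 counts in every sample and with a replicate block. Of all tested genes these settings called 2.91%, 2.52% and 2.91%. Leaving out 1 sample gave 0 to 2 of the 10 called. The number of the 10 passing was 5 with DESeq2 and 5 with the replicate block, beside 14% and 15.5% of all tested genes. It was 1 with limma on unfiltered log2 TPM, and 0 to 2 when 1 sample was left out. Of the wider set, limma on unfiltered TPM called 2 and passed 11, and leaving out 1 sample gave 0 to 7 called and 1 to 17 passing. The lowest passing counts came without control replicate 2, where 168 of all 13219 tested genes passed. Apart from this, the share of all tested genes is not given for fits with a sample left out or on unfiltered TPM. The counts from those fits are therefore not read as a result about these genes. The median log2 fold change of the 10 genes ran from -0.084 to 0.0099 when 1 sample was left out, *Gclm* from -0.063 to 0.071 and *Gsto1* from -0.17 to 0.092. The cause of these changes was not tested. Over all tested genes, same-numbered samples did not deviate together (r = 0.105, -0.014 and 0.019). Control replicate 2 correlated best with ablated replicate 3 (0.18), so the numbers were not treated as pairs. Of the 10 genes, *Keap1*, *Srxn1* and *Gsta4* had the same replicate order in both groups, and the others did not. With a replicate block the standard error rose for *Nqo1* and *Gsr* and fell for the other members. With the block, the 5 passing genes were *Hmox1*, *Keap1*, *Nqo1*, *Srxn1* and *Txnrd1*, and 5 genes of the wider set were called and 27 passed. Among the genes that passed, *Gpx2* and *Abcc3* had low counts, with means of 6.85 and 21.3 normalized counts in controls.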
